A study of Mus musculus with 2 samples.

Results

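Kinesins are motor proteins that use ATP to move along, slide or take apart microtubules. Kinesin motors and light chains with a Kif or Klc name were followed in mouse epidermis after 12 h of SOX11 induction, and the motors of the mitotic spindle were set against all others. Members were the probes whose gene name starts with Kif followed by a digit or c, or with Klc followed by a digit. This gave 73 probes of 46 genes, among 55676 probes of 34820 names tested. The mitotic group held 11 genes (14 probes), namely Kif2c, Kif4, Kif11, Kif14, Kif15, Kif18a, Kif20a, Kif20b, Kif22, Kif23 and Kifc1, and the other group held 35 genes (59 probes). The rule itself uses gene names and no measured value.

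The study induced SOX11, a DNA-binding protein of the SOXC group, in FVB/N pups that were at postnatal day 4.5 after 12 h of induction. Pups of 2 genotypes were set side by side, those with K14-rtTA;TRE-Sox11-FLAG (SOX11-induced) and K14-rtTA littermates (control), and all of them received doxycycline (Dox) for 12 h, so that the activator transgene and the drug were common to both. The K14 promoter drives the activator in keratin 14 positive cells, mainly the basal layer, whereas RNA came from the whole epidermis peeled from dorsal skin. The TRE-Sox11 line was made by injection of DNA into FVB/N embryos, and the sources used here do not say how many founders were kept. There were 2 littermate pairs, which the labels call biological replicates, and the methods of the study describe the pups of a pair as matched for sex. Each pair was hybridised to its own 2-colour array with control RNA in Cy3 and SOX11-induced RNA in Cy5.

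A log2 ratio below is the normalised SOX11-induced signal over the control signal of 1 probe, so a positive value means brighter in SOX11-induced epidermis. Both arrays had the same dye orientation, and for a single probe the effect of the dye and that of the genotype cannot be told apart. Of the 59305 non-control spots, between 37.5% and 42.6% were well above background, depending on array and channel. Neither Sox11 probe (means of -0.22 and -0.12 on the log2 scale) was well above background in any channel, so these probes did not check the labels, and whether they lie in the transgene was not analysed here. Adjusted p-values are from limma with Benjamini-Hochberg adjustment over all probes tested, and errors are the SD over 2 pairs. The number of arrays limits the precision, since an exact sign-flip test over 2 pairs cannot give a p below 0.5.

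As background, motors of the mitotic group build the spindle, move chromosomes or complete the separation of daughter cells, and their transcripts are made mostly in dividing cells. Kinesins of the other group carry vesicles, organelles and ciliary cargo, or control microtubule growth, and most are also used by cells that do not divide. In epidermis, dividing cells lie in the basal layer and in growing hair follicles. Many genes of the division programme share promoter elements, of which the CCAAT box is bound by NF-Y and the cell cycle homology region TTTGAA by complexes of the MuvB family.

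Promoters of the 4 mitotic kinesins with the lowest mean log2 ratios among those above background, and of Kif4, whose ratio had opposite signs in the pairs, are shown because the mitotic group is the one set apart in the values that follow. They are RefSeq windows on GRCm38.p6 (250 bases before to 50 after the transcript start, 5' to 3' on the strand of the gene). Capitals mark CCAAT or its reverse complement ATTGG, and TTTGAA or its reverse complement TTCAAA.
Kif22: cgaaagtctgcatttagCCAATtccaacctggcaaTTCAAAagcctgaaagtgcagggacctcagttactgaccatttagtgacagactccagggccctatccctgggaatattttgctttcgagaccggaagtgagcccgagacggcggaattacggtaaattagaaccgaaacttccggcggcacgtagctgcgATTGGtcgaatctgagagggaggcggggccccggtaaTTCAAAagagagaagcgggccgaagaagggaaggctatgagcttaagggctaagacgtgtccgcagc
Kif23: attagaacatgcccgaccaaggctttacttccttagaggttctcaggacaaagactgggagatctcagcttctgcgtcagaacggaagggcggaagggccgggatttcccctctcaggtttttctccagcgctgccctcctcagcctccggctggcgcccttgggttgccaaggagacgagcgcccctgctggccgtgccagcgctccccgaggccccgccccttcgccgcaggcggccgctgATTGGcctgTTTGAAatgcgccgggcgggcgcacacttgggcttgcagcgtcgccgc
Kif14: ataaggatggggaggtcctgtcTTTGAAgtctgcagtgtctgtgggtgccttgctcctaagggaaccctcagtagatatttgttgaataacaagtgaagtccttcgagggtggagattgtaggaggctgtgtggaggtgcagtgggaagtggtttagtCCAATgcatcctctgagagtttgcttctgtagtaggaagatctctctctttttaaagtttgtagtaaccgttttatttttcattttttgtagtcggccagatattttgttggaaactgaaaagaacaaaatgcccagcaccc
Kifc1: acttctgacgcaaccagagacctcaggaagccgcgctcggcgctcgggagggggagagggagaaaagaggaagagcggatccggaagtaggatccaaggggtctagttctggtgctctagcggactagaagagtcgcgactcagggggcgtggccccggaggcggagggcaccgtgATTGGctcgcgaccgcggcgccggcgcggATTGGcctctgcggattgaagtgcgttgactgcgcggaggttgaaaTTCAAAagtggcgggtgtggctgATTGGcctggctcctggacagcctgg
Kif4: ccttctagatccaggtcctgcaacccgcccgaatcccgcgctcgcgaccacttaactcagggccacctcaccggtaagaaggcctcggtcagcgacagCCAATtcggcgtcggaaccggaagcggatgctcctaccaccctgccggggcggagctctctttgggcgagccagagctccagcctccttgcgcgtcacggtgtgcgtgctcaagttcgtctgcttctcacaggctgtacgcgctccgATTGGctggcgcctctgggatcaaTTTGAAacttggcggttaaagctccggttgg

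The Kif22 window lies at chr7:127042371-127042670, that of Kif23 at chr9:61946750-61947049, that of Kif14 at chr1:136467598-136467897, that of Kifc1 at chr17:33890584-33890883 and that of Kif4 at chrX:100625815-100626114. All 5 windows hold both motifs, which counted in the choice of the windows shown, so this is no result. Of the mitotic kinesins, 10 had a window, and 9 of these (90.0%) held TTTGAA and 6 (60.0%) held CCAAT. The windows without TTTGAA or CCAAT were those of Kif18a, which held neither, and of Kif2c, Kif15 and Kif20b, which held TTTGAA alone. Among 30 windows of 26 other kinesin genes, 5 (16.7%) held TTTGAA and 13 (43.3%) held CCAAT. Both motifs stood together in 6 mitotic windows (60.0%) and in 4 other windows (13.3%), those of Kif18b, Kif26b, Kif27 and Kifc5b. Over all 32851 windows the shares were 17.9% for TTTGAA, 37.4% for CCAAT and 6.95% for both. Both strands were searched, neither motif contains the other, and a match describes the letters of a window and nothing about binding.

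The mitotic kinesins had a lower median log2 ratio than the other kinesins in both pairs, and this order held under every alternative of the processing that was run. A gene was represented by its brightest probe, and 36 of the 46 genes (9 mitotic and 27 other) passed the background flag on both arrays, in 1 channel or both, compared with 16341 of all 34820 names (46.9%). For the 9 mitotic genes, pair 1 gave a median log2 ratio of -0.56, pair 2 one of -0.29, and the means of both pairs one of -0.36. The 27 other genes had medians of 0.07 in both pairs and 0.11 for the means. Over all 16341 genes above background the medians were 0.03, 0.02 and 0.03, so that the other kinesins lay close to the array as a whole.

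The mitotic median was below that of the other kinesins by 0.62 in pair 1, by 0.36 in pair 2 and by 0.47 for the means. All 9 mitotic genes were below the median of the others in pair 1, and 7 of 9 in pair 2, where Kif4 and Kif20b were above it. Of the 9 mitotic genes, 7 were lower in both pairs and 0 higher in both, against 34.2% and 40.2% of all genes above background. The other kinesins divided into 5 lower in both pairs, 11 higher in both and 11 with opposite signs. Genes are not replicates, and no test was made over them.

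The difference of medians ranged from -0.26 with the mean over all probes of a gene to -0.76 with processed signals, but the sign of a value could depend on the centring. With median centring in place of loess, the median of all genes above background moved to 0.52. Relative to it the mitotic kinesins had a median of -0.54 and the other kinesins one of -0.09, which turns the sign of the other kinesins. Median centring, unlike loess, leaves in place any trend of the ratio with brightness. The groups differed in brightness, with median log2 levels of 6.78 (mitotic), 7.97 (other) and 8.37 (all genes above background). The part of brightness in these values was not tested. With median centring the mitotic median itself was -0.01, and Kif11, Kif20a and Kif20b had positive means. In bulk tissue, fewer dividing cells and less RNA per dividing cell cannot be told apart.

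**Figure D1:**
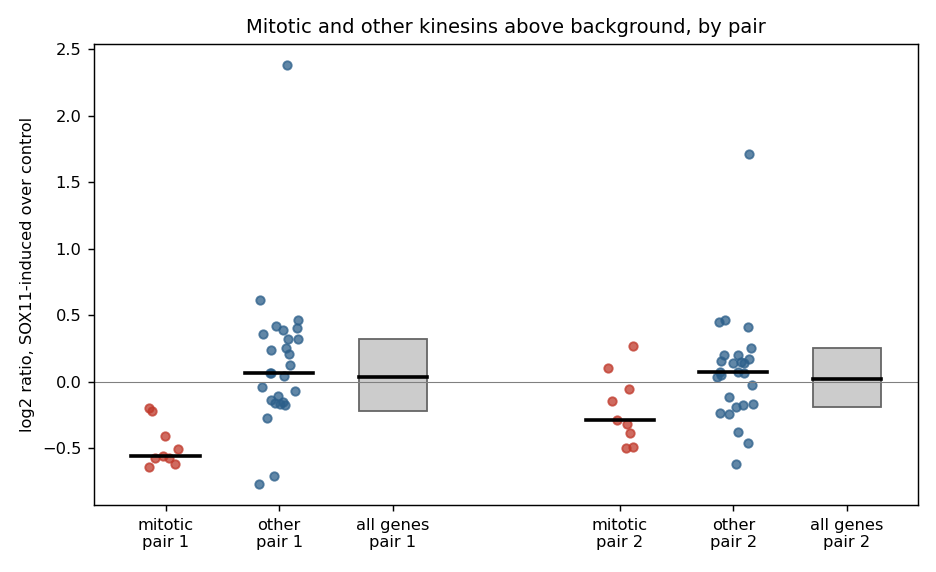
Log2 ratio (SOX11-induced over control, vertical axis) of each kinesin gene above background in pair 1 and pair 2, with 9 mitotic genes in red and 27 other genes in blue, black bars at the group medians, and grey boxes from the lower to the upper quartile of all 16341 genes above background. The mitotic points lie below 0 in pair 1 (median -0.56) and mostly below 0 in pair 2 (median -0.29), the medians of the other genes are at 0.07, and with median centring the mitotic median of the means was -0.01 beside 0.52 for all genes.

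No mitotic kinesin above background passed the test on its own. At the threshold in the methods of the study (adjusted p under 0.05 and a log2 ratio past 1.5), 1 of 73 kinesin probes was higher, against 0.366% of all probes, and 0 were lower, against 0.0862%. With a 1.5-fold change in place of log2 1.5, 2 probes were higher, against 2.99% of all probes, and 2 were lower, against 1.41%. These are 1 or 2 probes each, and no statement about kinesins as a group rests on them. Of the 73 probes, 4 had an adjusted p under 0.05 (limma), against 4.39% of all probes, and 18 an unadjusted p under 0.05, against 21.1%, so that these counts are no result about kinesins. Among the 9 mitotic genes above background, 0 had an adjusted p under 0.05 by limma and 5 an unadjusted p under 0.05, all with lower signal after induction. Of all genes above background, 3.52% were lower at an adjusted p under 0.05 and 13.1% at an unadjusted one. With a normexp offset of 50, 2 of the 9 were lower at an adjusted p under 0.05, and 1 when only probes above background were tested (limma).

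Motors that act on chromosomes and at spindle poles are given first. Kif22, a chromokinesin that pushes chromosome arms away from the poles, had normalised log2 intensities of 9.29 (control) and 8.64 (SOX11-induced) in pair 1, and of 8.80 and 8.31 in pair 2. Both SOX11-induced values of Kif22 lay below both control values. Such an order, here and for genes below, is a description, and the share of all genes showing it was not counted. Its log2 ratios were -0.64 and -0.49, and averaged -0.57 ± 0.107 over the 2 pairs (adjusted p = 0.0700, limma). The Kif22 probe lies on chromosome 7 at 134171255-134171314 (mm9, reverse strand). The value passed the threshold when only probes above background were tested (adjusted p = 0.0478, limma) or with a normexp offset of 50 (adjusted p = 0.0155, limma). With median centring the mean of Kif22 was -0.01 (adjusted p = 0.956, limma), and with processed signals it was -0.67 (adjusted p = 0.245, limma).

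Kifc1, a minus-end motor that focuses spindle poles, had log2 ratios of -0.62 and -0.29, with a mean of -0.45 ± 0.235 (adjusted p = 0.146, limma). A near-identical relative, Kifc5b, was not above background in any channel (mean log2 ratio -0.10), and cross-hybridisation between the relatives was not tested. Kif2c, which removes tubulin from microtubule ends at centromeres, had ratios of -0.41 and -0.32, and its mean was -0.36 ± 0.0603 (adjusted p = 0.203, limma). A second Kif2c probe, above background on 1 array alone, had a mean of -0.10. Kif11, the motor that slides spindle poles apart and a widely used target of mitotic inhibitors, showed a small difference. Its ratios were -0.20 and -0.15, with a mean of -0.17 ± 0.0374 (adjusted p = 0.555, limma) and a 95% interval from -0.51 to 0.16.

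Motors of cytokinesis gave values of similar size. Kif23, the motor of the centralspindlin complex, had normalised log2 intensities of 7.31 (control) and 6.76 (SOX11-induced) in pair 1 and of 6.78 and 6.28 in pair 2. Both SOX11-induced values lay below both control values, but the control of pair 2 and the induced pup of pair 1 were almost level. The ratios within pairs were -0.56 and -0.50, with a mean of -0.53 ± 0.0427 (adjusted p = 0.0845, limma, and 0.0338 with a normexp offset of 50). With median centring the mean of Kif23 was -0.18 (adjusted p = 0.402, limma), and with processed signals it was -0.72 (adjusted p = 0.244, limma). Its probe lies on chromosome 9 at 61767492-61767732 (mm9, reverse strand), and a second probe, not above background, had a mean of -0.57. Kif14, which acts with the midbody kinase citron at the end of division, had ratios of -0.58 and -0.39 and a mean of -0.48 ± 0.133 (adjusted p = 0.112, limma). The SOX11 channel of Kif14 was not well above background in pair 1, and a second probe, not above background in any channel, had a mean of 0.00.

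Kif20a and Kif20b, relatives that act at the central spindle and midbody, differed between the pairs. Kif20a had ratios of -0.51 and -0.05 (mean -0.28 ± 0.319, adjusted p = 0.371, limma). Kif20b had -0.57 and 0.10 (mean -0.24 ± 0.478, adjusted p = 0.508, limma), so its sign rested on pair 1. Kif4, a chromokinesin of chromosome arms and the central spindle, had -0.22 and 0.27, with a mean of 0.02 ± 0.344 (adjusted p = 0.958, limma). The sign of the Kif4 mean was negative with median spot intensity, with processed signals and in the authors' log2 ratios. The pseudogene Kif4-ps, which resembles Kif4, was not above background (mean -0.39).

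The remaining pair of mitotic kinesins was dim. Kif18a, which damps chromosome movements at the metaphase plate, had log2 ratios of -0.85 and -0.72 and a mean of -0.79 ± 0.0900 (adjusted p = 0.0208, limma). Its control channel was well above background in pair 1 alone and its SOX11 channel on 0 arrays, so the size of the difference could not be read. The mean of the control channel over both arrays was 1.37-fold that of a floor for the SOX11 channel. That floor was taken on each array as the channel's own signal or, if higher, that of the dimmest probe flagged as well above background. Since the Kif18a control of pair 2 was itself not well above background, 1.37-fold is no minimum. Kif15, which can take over from Kif11 in the spindle, was above background in 1 of the 4 channels and had ratios of -0.02 and 0.11 (mean 0.04 ± 0.0918, adjusted p = 0.900, limma).

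**Figure D2:**
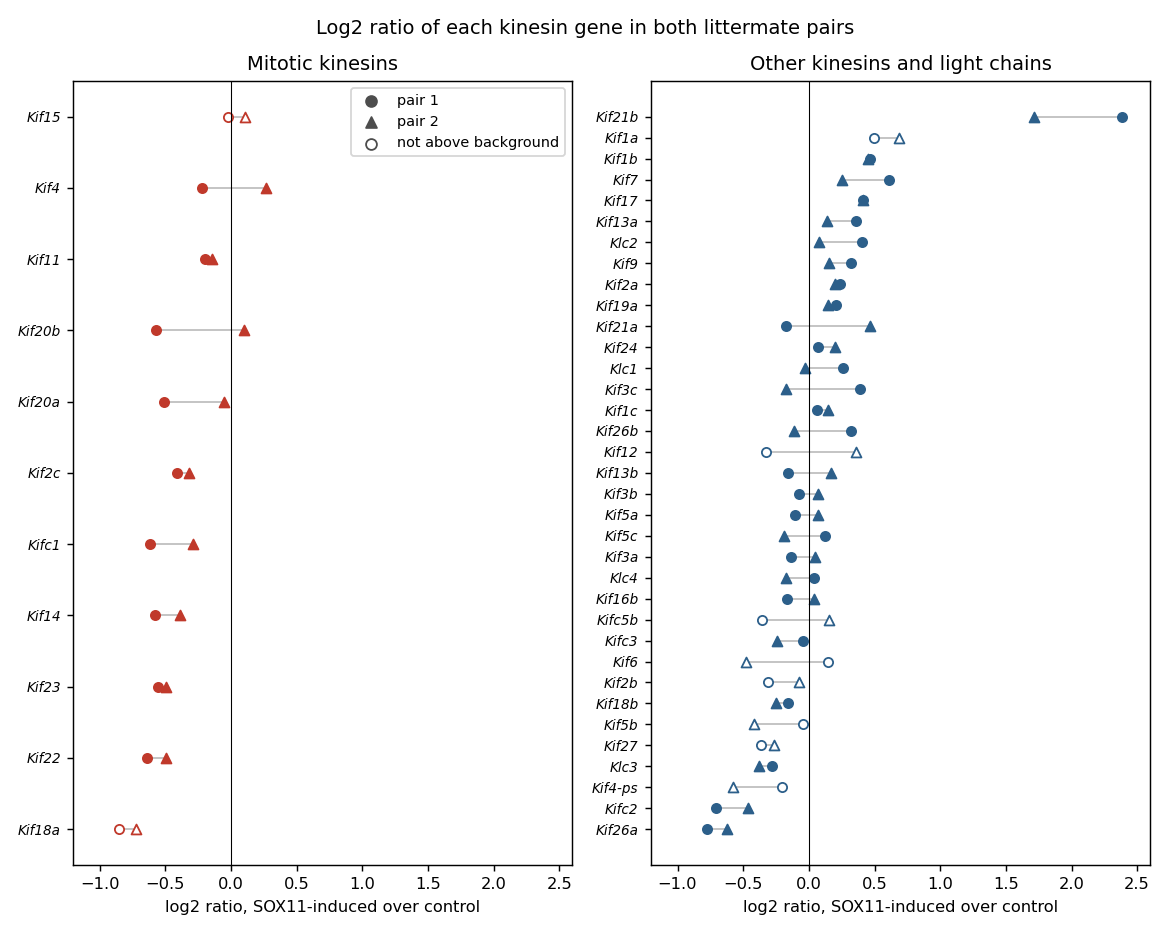
Log2 ratio of all 46 kinesin genes (horizontal axis) in pair 1 (circles) and pair 2 (triangles), joined by a grey line, with the 11 mitotic genes on the left and the 35 other genes on the right, each group ordered by mean, and open symbols for genes not above background. Kif21b stands apart at 2.38 and 1.71, Kif26a lies at the other end of its panel with -0.77 and -0.62, and most mitotic genes lie to the left of 0, of which Kif11, Kif20a and Kif20b have means to the right of it with median centring.

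Kif21b was the one kinesin called at log2 1.5. It belongs to the kinesin-4 family and controls microtubule growth, and it is best known from neurons and immune cells. Its normalised log2 intensities were 7.02 (control) and 9.41 (SOX11-induced) in pair 1 and 7.64 and 9.35 in pair 2. Both SOX11-induced values lay above both control values, the values of the induced pups were close to each other, and the probe was well above background in all 4 channels. The log2 ratios were 2.38 and 1.71, and their mean was 2.05 ± 0.473, with a 95% interval from 1.63 to 2.46 and a change of 4.13-fold (n = 2, adjusted p = 0.000437, limma). Kif21b has a single probe on the array, on chromosome 1 at 138074490-138074549 (mm9, forward strand), so a second probe could not be set beside it. With the processed signals of the scanner software the mean was 2.26, but the adjusted p was 0.260 (limma), and 0 probes on the whole array were called at log2 1.5 under that setting.

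Neurons and leukocytes are cell types known to express Kif21b, and their markers were read beside it. Of 7 neuronal markers 3 were above background, while Elavl4, Nefl, Nefm and Rbfox3 were not. These 3 were split, 1 being lower in both pairs (mean log2 ratio -0.39) and 2 higher in both (highest mean 0.26). The summed normalised intensity of all 7 went from 1025 (control) to 1211 (SOX11-induced) in pair 1 and from 1040.0 to 1178 in pair 2. The 4 leukocyte markers were above background, and their summed level went from 3155 to 2497 in pair 1 and from 1507 to 1438 in pair 2. The part of either cell type in the Kif21b value was not tested. Hair shaft and matrix markers differed between pairs, their median being 2.09 in the first of them and -0.18 in the other.

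The closest relatives of Kif21b on the array did not show a change of that size. Kif21a, a paralogue with a like role in microtubule growth, had ratios of -0.18 and 0.46, and its mean of 0.14 (95% interval from -0.27 to 0.55, adjusted p = 0.698, limma) lies wholly below the interval of Kif21b. Kif7, a kinesin of the ciliary tip in Hedgehog signalling, had ratios of 0.61 and 0.25 and a mean of 0.43 ± 0.255 (adjusted p = 0.167, limma). Kif27, its relative, was not above background. The difference between paralogues was not tested, since probes differ in their response.

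Kif26a was the one kinesin above background that fell at the 1.5-fold threshold. It is an atypical kinesin that binds microtubules without moving along them. Its normalised log2 intensities were 8.67 (control) and 7.90 (SOX11-induced) in pair 1 and 8.77 and 8.15 in pair 2, and both control values lay above both SOX11-induced values. The ratios were -0.77 and -0.62, and averaged -0.70 ± 0.107 over the 2 pairs (adjusted p = 0.0346, limma). The probe lies on chromosome 12 at 113419259-113419318 (mm9, forward strand). A second probe at 113412435-113412494, not above background in any channel, had a mean of the opposite sign, 0.11. The call was lost with median spot intensity (adjusted p = 0.0556, limma), in the authors' log2 ratios (0.0549), with processed signals (0.247) and with median centring, where the mean was -0.16. Kif26b, its paralogue, had ratios of 0.32 and -0.12 and a mean of 0.10 ± 0.310 (adjusted p = 0.769, limma).

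**Figure D3:**
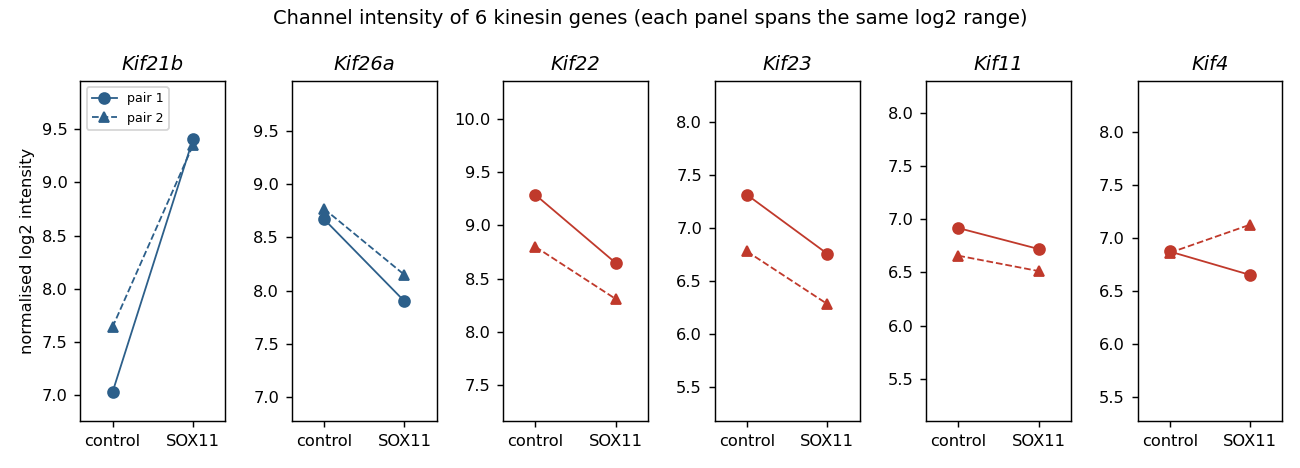
Normalised log2 intensity (vertical axis, each panel spanning the same range) of 6 kinesin genes in the control and SOX11-induced channel, with a line for each littermate pair. Kif21b goes from 7.02 and 7.64 to 9.41 and 9.35, Kif26a from 8.67 and 8.77 to 7.90 and 8.15, Kif22 and Kif23 slope down in both pairs, Kif11 slopes down slightly, though its mean was 0.17 with median centring, and the lines of Kif4 cross.

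The second probe called higher at the 1.5-fold threshold belonged to Kif2a, a kinesin-13 motor that takes microtubules apart. It lies on chromosome 13 at 107751340-107751399 (mm9, reverse strand) and was named after its values were seen. Its log2 ratios were 0.67 and 0.60, with a mean of 0.63 ± 0.0487 (adjusted p = 0.0480, limma). The Kif2a call was lost with median spot intensity (adjusted p = 0.0717, limma), in the authors' log2 ratios (0.0696) and with processed signals (0.244), and with a normexp offset of 50 the mean of 0.47 was under 1.5-fold. The brightest Kif2a probe, at 107751949-107752008, had ratios of 0.24 and 0.20 (adjusted p = 0.435, limma), and the remaining probe, not above background, had a mean of -0.24. The probes of Kif2a therefore did not give 1 value for the gene. Of 7 kinesin genes with several probes above background, 5 had the same sign at every such probe, and Kif2a had the widest difference between probes, 0.41.

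The motors of cargo transport had means on both sides of 0. The heavy chains of kinesin-1, the main motor of long-range transport, gave means of -0.02 (Kif5a) and -0.03 (Kif5c), and Kif5b, the widely expressed heavy chain, had no probe above background, so its level could not be read from this array. The light chains, which link kinesin-1 to cargo, had means from -0.33 (Klc3, adjusted p = 0.250, limma) to 0.24 (Klc2, adjusted p = 0.424, limma), with Klc1 at 0.11 and Klc4 at -0.06. Kinesin-2, the motor that carries material into cilia, had means of -0.04 for Kif3a, 0.00 for Kif3b and 0.11 for Kif3c. The 95% interval of Kif3a ran from -0.39 to 0.30 and that of Kif3b from -0.34 to 0.34. In this loess fit a 1.5-fold change (0.585 on the log2 scale) lies outside both intervals. The sign of a value can depend on the centring. With median centring the means were 0.55 for Kif3a and 0.19 for Kif3b, beside a median of 0.52 for all genes above background.

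Kif17, a further kinesin-2 motor, had ratios of 0.42 and 0.41 and a mean of 0.41 (adjusted p = 0.156, limma). Its control channel was below background on both arrays, so the size of the difference could not be read. The mean of the SOX11 channel was 1.11-fold that of a floor for the control channel, taken as for Kif18a. Since the Kif17 probe did not pass the test, 1.11-fold is no minimum. The other Kif17 probes, not above background in any channel, had means of -0.07 and -0.16. Kinesin-3 motors, which carry vesicles, had a median of 0.11 over 5 genes. Kif1b was the member with the highest mean, 0.46 ± 0.00805 (adjusted p = 0.122, limma), and its second probe gave 0.49 (adjusted p = 0.104, limma). Kif1a, the neuronal relative, was not above background. Among the minus-end motors that are not mitotic, Kifc2 had ratios of -0.71 and -0.47 and a mean of -0.59 ± 0.173 (adjusted p = 0.0673, limma), and Kifc3 had a mean of -0.14. Kif18b, a motor of microtubule plus ends that is also used in division, had a mean of -0.20 (adjusted p = 0.480, limma).

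The 10 genes without a probe above background were Kif1a, Kif2b, Kif4-ps, Kif5b, Kif6, Kif12, Kif15, Kif18a, Kif27 and Kifc5b. Across the 36 kinesin genes above background, pair 1 and pair 2 correlated with a Pearson r of 0.838, or 0.653 without Kif21b, beside 0.687 over all genes above background. These correlations are across genes of the same pair of arrays and are given as a description.

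Other genes of cell division and transport were taken from lists to place the kinesins. Of 25 partners of mitosis (spindle, checkpoint, cyclin and cytokinesis genes), 22 were above background, with medians of -0.63 in pair 1 and -0.34 in pair 2. Of these 22, 18 were lower in both pairs and 1 was higher in both. The median of the means, -0.47, turned to 0.06 with median centring, where that of all genes above background was 0.52. The test was passed by 4 of the 22, all lower after induction, against 3.52% of all genes above background that were lower. Birc5, a subunit of the chromosomal passenger complex, had a mean of -1.04 ± 0.0554 (adjusted p = 0.00547, limma). Ccna2, the S phase and mitotic cyclin A, had -0.88 and -0.98 (adjusted p = 0.00984, limma). Mki67, the proliferation marker that coats chromosomes, had -0.94 and -0.87 (adjusted p = 0.0111, limma), and Anln, a scaffold of the cleavage furrow, had -0.76 and -0.54 (adjusted p = 0.0476, limma).

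Direct partners of the kinesins above were in the same list. Prc1, which bundles central spindle microtubules with Kif4, had a mean of -0.68 (adjusted p = 0.0612, limma), and Racgap1, which forms centralspindlin with Kif23, one of -0.36 (adjusted p = 0.284, limma). Tpx2, which binds Kif11 and Kif15 on the spindle, had ratios of -0.06 and 0.20 (adjusted p = 0.840, limma). The kinesin Cenpe, which does not carry a Kif name, had -0.63 and 0.16 (adjusted p = 0.543, limma), the same split between pairs as Kif20b. The pair 1 median was further below 0 than that of pair 2 in the mitotic kinesins and in their partners alike.

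The cytoplasmic dynein motor, which moves cargo in the opposite direction to most kinesins, gave medians of 0.12 and 0.07 over 20 of 23 genes above background. The test was passed by 1 of these, against 6.93% of all genes above background that were higher. It was the dynein intermediate chain Dync1i2, with ratios of 0.71 and 0.82 (adjusted p = 0.0231, limma), whereas the heavy chain Dync1h1 had a mean of 0.09 (adjusted p = 0.782, limma). Kinesin adaptors, which tie motors to cargo, had medians of -0.13 in both pairs over 9 of 12 genes above background, and 0 passed the test by limma (2 at an unadjusted p under 0.05, 1 in each direction, against 18.7% of all genes higher and 13.1% lower). The lowest was Mapk8ip3, an adaptor of kinesin-1 and dynein, with ratios of -0.51 and -0.50 (adjusted p = 0.0938, limma), and the highest was Trak2, a mitochondrial adaptor, with a mean of 0.45 (adjusted p = 0.161, limma). Kifap3, the shared subunit of Kif3 motors, had a mean of -0.20 (adjusted p = 0.483, limma). The medians of both transport lists had other values with median centring, 0.67 for dynein and 0.36 for the adaptors, beside 0.52 for all genes above background.

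**Figure D4:**
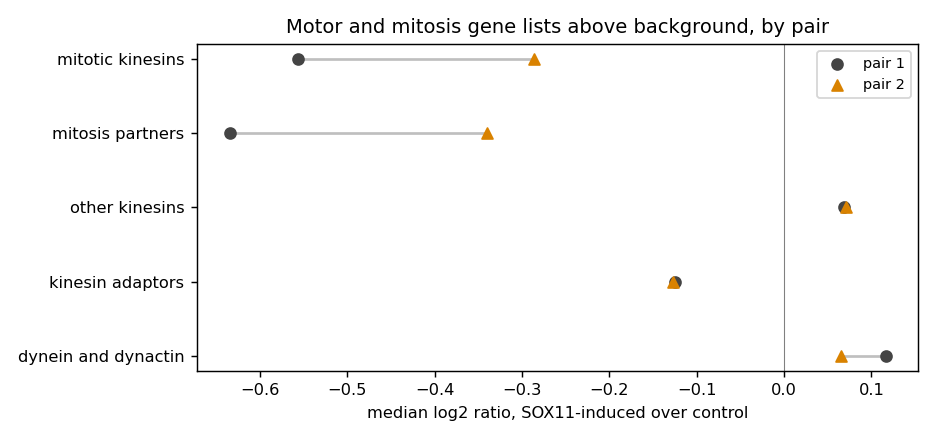
Median log2 ratio (horizontal axis) of the mitotic kinesins, mitosis partners, other kinesins, kinesin adaptors and dynein and dynactin genes above background, in pair 1 (circles) and pair 2 (triangles). The mitotic kinesins (-0.56 and -0.29) and mitosis partners (-0.63 and -0.34) lie apart from the other 3 lists, whose medians are between -0.13 and 0.12, and with median centring the medians of the means turn to 0.06 for the partners and to 0.36 for the adaptors.

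Markers of other cell types were read beside the mitotic kinesins. The 6 keratinocyte markers, a mix of basal and suprabasal genes, were above background, with medians of -0.15 (pair 1) and -0.32 (pair 2). Their summed level went from 402982 to 411926 in pair 1 and from 321307 to 367565 in pair 2. Basal layer genes Krt5 and Krt14 had ratios of -0.25 and -0.13 in pair 1 and of -0.62 and -0.50 in pair 2, whereas the suprabasal Krt1 and Krt10 had 0.36 and 0.23 in pair 1 and 0.89 and 0.94 in pair 2. The 8 hair shaft and matrix markers went from a summed level of 27345 to 125406 in pair 1 and from 223892 to 184744 in pair 2. Fibroblast markers (3 of 4 above background, Pdgfra not) went from 743 to 502 and from 851 to 857, and they were split. Dcn alone passed the test (mean log2 ratio -0.79, adjusted p = 0.0260, limma). Col1a1 and Col3a1 each had a mean of 0.37, with opposite signs in the pairs. The 4 melanocyte markers went from 8308 to 10688 and from 6066 to 6091. Of the 4 muscle markers, Ckm and Des were not above background. The part of these cell types in the kinesin values was not tested.

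**Figure D5:**
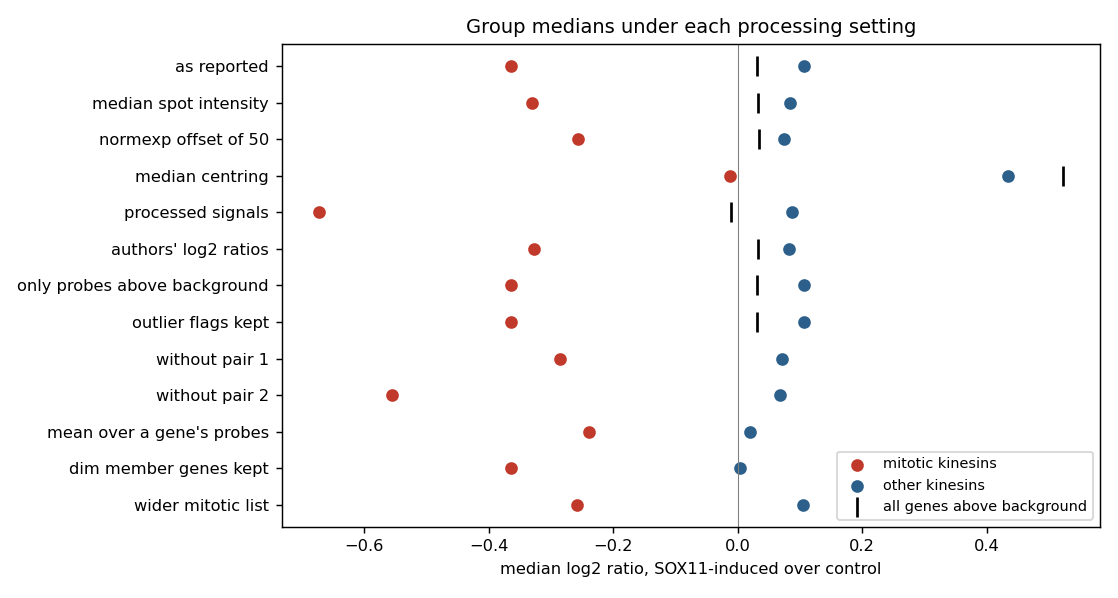
Median of the mean log2 ratios (horizontal axis) of the mitotic kinesins (red), other kinesins (blue) and all genes above background (black line, shown where it was recomputed) under each processing setting. The red point lies to the left of the blue point in every row, from -0.26 apart with the mean over all probes of a gene to -0.76 apart with processed signals. With median centring the median of all genes above background is 0.52.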

How the data were processed

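The arrays measured RNA of 2 littermate pairs (1 array each), and the labels alone set the groups. Per the file headers, Agilent Feature Extraction 10.7.3.1 wrote the deposited intensity values, raw and processed, with its outlier and background flags and positions on mm9. The deposited series table holds the authors' log2 ratios, which were rebuilt from median spot intensity with normexp and loess (correlation 1 on both arrays). The methods mention a colour swap that the labels do not show, and a ComBat step that this match did not need.

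Mean spot and median background intensity were corrected by normexp (offset 16) and centred by loess in R 4.3.3 with limma 3.58.1, without outlier-flagged spots, control spots having weight 0 in loess. Spots of a probe were averaged, and for each probe the mean of both log2 ratios was tested by an intercept model with eBayes (prior of 8.34 degrees of freedom) and Benjamini-Hochberg adjustment. Each array compares the pups of a littermate pair, so every fit is paired. Well above background means flagged so by the software at a share of at least 0.5 of a probe's spots. Both arrays lay on 1 slide. Genes given in full were all mitotic kinesins and every other kinesin above background with an adjusted p under 0.05. Others are given by range, end or role. Names were matched to RefSeq by accession for 64 of 73 probes, with 0 renamed. The fit was tested on simulated data. Members and lists were chosen with earlier results of these data known.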

Additional observations from a re-analysis of the deposited data

How the results depend on the processing

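Alternatives were median spot intensity, a normexp offset of 50, median centring, processed signals, the authors' log2 ratios, only probes above background, outlier flags kept, each pair left out and, for the medians, other choices of probes and genes. In every one, the mitotic median and the difference kept their sign. The median of the other kinesins was 0.0845 with median spot intensity, 0.0750 with the offset of 50, 0.435 with median centring, 0.0872 with processed signals, 0.0818 in the authors' ratios, 0.0201 with the mean over all probes of a gene, 0.00396 with genes below background kept, and 0.105 with a wider mitotic list that moved Kif18b, Kif2a and Kif24 (without 1 pair, 0.0683 to 0.0713). The mitotic median was -0.0131 with median centring and -0.673 with processed signals (without 1 pair, -0.556 to -0.286). The difference was -0.760 with processed signals, -0.260 with the mean over probes, and -0.625 to -0.357 without 1 pair. Probes called at log2 1.5 were 1 except for 0 with processed signals (20 at an unadjusted p under 0.05, limma). Probes called at 1.5-fold numbered 4, but 2 with median spot intensity, the offset of 50 or the authors' ratios, 3 with only probes above background, 15 with median centring (12 higher, 3 lower) and 0 with processed signals.

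Signs turned for Kif4 (-0.0165 with median spot intensity, -0.0755 with processed signals, -0.0145 in the authors' ratios, and -0.221 to 0.265 without 1 pair), for Kif11 (0.168), Kif20a (0.215) and Kif20b (0.198) with median centring, for Kif20b without 1 pair (-0.575 to 0.102), and for Kif15 (-0.313 with processed signals, -0.0210 to 0.109 without 1 pair). Of 115 single-gene values, 96 kept sign and, where a test was run, side of the threshold. Another 10 turned sign, 6 lost and 3 gained the threshold, and the cause was not tested. The values without 1 pair are among the 115 and were judged by sign alone. With processed signals Kif18a was at -2.29 (adjusted p = 0.244, limma). Leaving out a pair leaves 1 array and no test, so counts of calls were not recomputed. Both arrays lay on 1 slide, and a slide block could not be fitted. Signal near background limits Kif15, Kif18a and the other dim genes.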
